A study of Homo sapiens with 12 samples.

Results

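Transcript levels of 41 genes of the integrated stress response and the unfolded protein response were followed through the development of lapatinib resistance in BT474 cells. BT474 is a human cell line, long established from a breast cancer with HER2 amplification, and lapatinib blocks the kinases HER2 and EGFR. The genes were taken by name from the 26485 genes of the table, as ATF4 targets with the serine pathway and as chaperone targets of ATF6 and XBP1, and all 41 were found and passed the filter on low values. They were ordered here by role into 9 sensors and transcription factors, 6 ATF4 effectors, 8 enzymes of serine, one-carbon and transsulfuration metabolism, 14 chaperones and folding enzymes of the endoplasmic reticulum (ER), and 4 genes of ER-associated degradation.

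The mRNA libraries fell into 4 groups of 3. Control cells were taken at day 0, persisters that tolerate the drug (DTP) at day 9, expanded persisters (DTEP) at month 6 and long-term resistant cells (LR) at month 9, with lapatinib given at 1 µM. Control libraries carry the same treatment label and were read as untreated because they are titled Control at day 0. The study describes parallel plates of the one line and also technical replicates, so n counts libraries, and SDs and p-values do not cover independent derivations of a state.

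The integrated stress response starts when kinases such as PERK, encoded by EIF2AK3, phosphorylate the translation factor eIF2. Most translation then slows, while the mRNA of the transcription factor ATF4 is translated better, and ATF4 turns on genes for amino acid synthesis, redox balance and, with CHOP (DDIT3), cell death. The unfolded protein response adds a pair of further ER sensors. IRE1 (ERN1) splices the mRNA of XBP1, and ATF6 is cut to release a factor, and both outputs raise ER chaperones and degradation genes. PERK, ATF4 translation, XBP1 splicing and ATF6 cleavage act on protein or RNA form, so gene-level mRNA counts measure only part of this system.

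Depth was 16383363 to 25030482 assigned reads per library, and 3 reads were worth 0.124 to 0.173 normalised read counts. Values are the normalised read counts of the deposited table, and limits of this kind cover counting error only. Replicates were closest in Control (median log2 SD per gene 0.07), then in DTP (0.17) and LR (0.20), and farthest apart in DTEP libraries (0.33). DTEP replicate 3 stood apart, with a Pearson's r across genes between 0.971 and 0.986 with LR and between 0.934 and 0.962 with its own group. All 7 markers of luminal HER2-positive epithelium, the labelled cell type, were detected, each with more than 3 reads in at least 1 library. Their summed level was 10500 to 11300 in Control and 12900 to 15300 in DTP libraries. In DTEP and LR libraries it was lower, at 4240 to 6170 and 3990 to 5450, and the genes are not given singly. At most 3 reads per library were found for 4 of 6 fibroblast, 4 of 5 leukocyte and 1 of 4 endothelial markers, and the highest sum of each list was 130 for fibroblast, 3.58 for leukocyte and 8.94 for endothelial markers. The sum of 7 proliferation genes was 1560 to 1570 in Control, from 89.7 to 97.6 in DTP, from 1590 to 2260 in DTEP and from 483 to 1130 in LR libraries. The proliferation sum differed between the groups in every comparison below, though little between Control and DTEP. The luminal sum differed in every comparison except that of LR with DTEP, where the ranges overlapped. The part of these sums in the results was not tested. In bulk RNA, fewer expressing cells and less RNA per cell cannot be told apart.

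ATF4 and the ER branches act through known promoter motifs, which were looked for in the genes themselves. RefSeq windows from 250 bases before to 50 after the start were at hand for 37 of the 41 genes (GRCh38.p14), and both strands were searched for 3 motifs. The C/EBP-ATF response element, bound by ATF4 with C/EBP factors, was searched as TGATGNAAN, the UPR element as TGACGTGG, and the ER stress response element of ATF6 as CCAAT and CCACG set 9 bases apart. The C/EBP-ATF element was present in 3 of the 37 windows (8.11%), against 3.67% of all 27305 promoters, in ASNS, CHAC1 and HERPUD1. The ER stress response element was present in 5 (13.5%), against 0.0806% of all promoters, in CALR, CANX, CRELD2, HSP90B1 and HSPA5. The UPR element was present in HYOU1 alone (2.7%, against 0.795% of all promoters). Among promoters of tested genes the shares were 1.63%, 0.131% and 0.964% in the same order. The 41 genes were taken as targets of these factors, so a share above the background is no separate evidence. No matches overlapped each other, and a match is a description of sequence and not a shown site of binding. The stretches below hold the matches of 5 of these genes, with the motif in capitals and 40 bases on each side. Those of CALR, CANX, HERPUD1 and HYOU1 are not printed. That of ASNS lies at chr7:97872428-97872516 on the minus strand, with the C/EBP-ATF element at bases -68 to -60 from the start, and that of CHAC1 at chr15:40953221-40953309 on the plus strand, with the element on the opposite strand at -210 to -202. The stretches of HSPA5 (chr9:125241351-125241449, minus strand, -66 to -48) and CRELD2 (chr22:49918514-49918612, plus strand, opposite-strand match at -80 to -62) each hold 1 ER stress response element. That of HSP90B1 (chr12:103930176-103930379, plus strand) holds 2, at -194 to -176 and, on the opposite strand, at -89 to -71.
ASNS: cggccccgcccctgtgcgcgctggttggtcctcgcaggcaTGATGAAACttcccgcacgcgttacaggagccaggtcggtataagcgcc
CHAC1: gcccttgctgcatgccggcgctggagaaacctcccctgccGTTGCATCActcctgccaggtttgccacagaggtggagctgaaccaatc
HSPA5: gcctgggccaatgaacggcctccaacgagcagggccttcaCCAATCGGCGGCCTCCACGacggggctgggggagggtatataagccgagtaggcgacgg
CRELD2: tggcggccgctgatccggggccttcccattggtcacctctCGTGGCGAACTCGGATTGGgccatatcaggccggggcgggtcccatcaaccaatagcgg
HSP90B1: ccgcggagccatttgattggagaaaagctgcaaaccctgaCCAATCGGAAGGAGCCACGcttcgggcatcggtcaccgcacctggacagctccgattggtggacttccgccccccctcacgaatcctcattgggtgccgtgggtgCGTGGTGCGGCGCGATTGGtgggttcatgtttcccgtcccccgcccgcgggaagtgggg

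To ask how these genes change as cells enter tolerance, resume growth and become resistant, each state was compared with the one before it. A gene was called higher or lower when its log2 change exceeded 1 in size with an adjusted p under 0.05 (limma on log2(value + 1), Benjamini-Hochberg over the 13794 genes tested). From Control to DTP cells 7 of the 41 genes were higher and 5 lower, where 9.24% of all genes tested were higher and 15.8% lower. DDIT3, PPP1R15A, NUPR1, CHAC1, DDIT4, SESN2 and ASNS, which belong to the PERK and ATF4 branch, made up the first group. ERN1, EIF2AK3, VLDLR, SEL1L and MTHFD2 made up the second. EIF2AK3 encodes PERK itself, VLDLR is listed here as an ATF4 effector and MTHFD2 with the serine pathway. The PERK and ATF4 branch thus had genes in both groups. None of the 14 chaperones was called by limma, although 4 higher and 2 lower passed the adjusted p alone and MANF passed with edgeR and DESeq2. The median log2 change of the 41 was 0.11, against -0.01 over all genes tested.

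From DTP to DTEP cells 11 genes were higher and 5 lower, against 22.4% and 19.5% of all genes. CBS, ERN1, SDF2L1, VLDLR, DDIT4, EDEM1, EIF2AK3, MTHFD2, CRELD2, PDIA3 and SEL1L were higher, and PSAT1, DDIT3, ASNS, PPP1R15A and SYVN1 were lower. The median log2 change was 0.49, against 0.08 over all genes. From DTEP to LR cells only CHAC1 was higher, and PSAT1 and SDF2L1 were lower, against 1.45% and 2.5% of all genes. Against Control cells, 10 were higher and 1 lower in DTEP (background 15.1% and 16.4%), and 11 were higher and 1 lower in LR (16.9% and 19.6%). These comparisons share libraries, so they are set side by side below gene by gene and not counted as separate evidence.

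**Figure D1:**
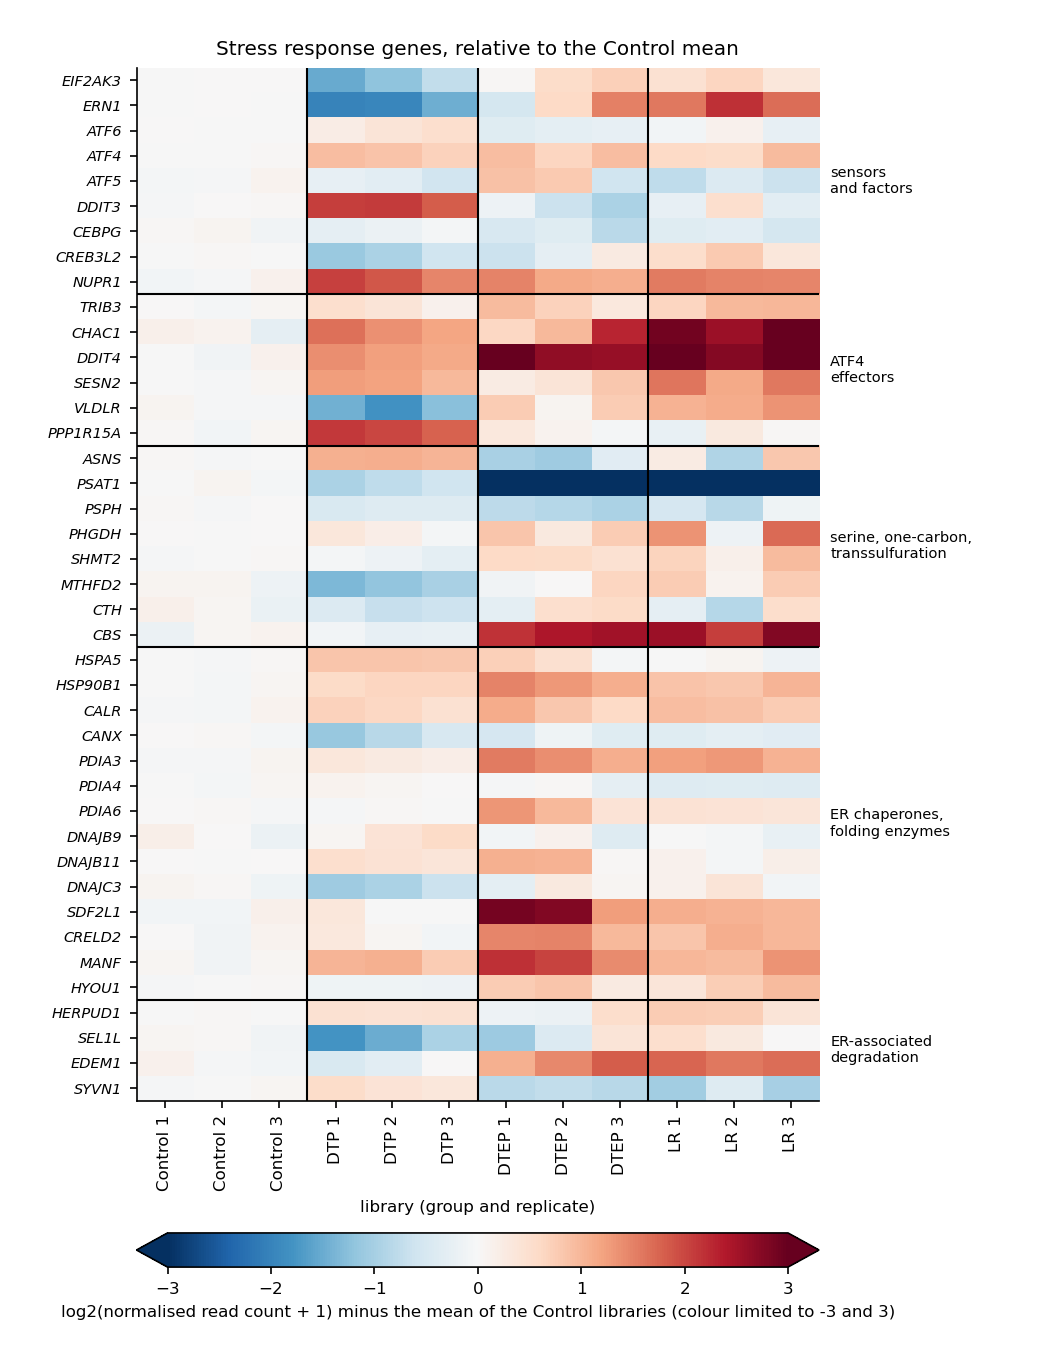
Level of each of the 41 genes (rows, by role) in each library (columns, by group), as log2(normalised read count + 1) minus the mean of the 3 Control libraries, with the colour limited to -3 and 3. PSAT1 was at or past the lower limit in all DTEP and LR libraries, the ATF4 effectors other than VLDLR were above Control in DTP libraries, and DTEP replicate 3 was paler than the other DTEP libraries in most chaperones.

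ERN1 and EIF2AK3, a pair of the ER stress sensors, were lower in DTP than in Control cells and higher in DTEP than in DTP cells. ERN1, which encodes IRE1 (chr17:64039142-64130144, minus strand), was at 7.27, 7.45 and 7.31 normalised read counts in Control, 1.10, 1.14 and 2.02 in DTP, 4.78, 11.6 and 22.6 in DTEP, and 24.04, 36.9 and 25.6 in LR libraries. All DTP libraries lay below every other library, and all LR libraries lay above every DTEP library. The log2 change was -1.81 ± 0.39 (SE, limma adjusted p = 0.00231) from Control to DTP, 2.33 ± 0.39 (adjusted p = 0.000221) from DTP to DTEP, and 1.81 (adjusted p = 0.00163) from Control to LR. From DTEP to LR it was 1.29 ± 0.39 and missed the threshold (adjusted p = 0.0594), DESeq2 called it at 1.188 (adjusted p = 0.0424), and without DTEP replicate 3 it was 1.78 and was called (adjusted p = 0.000877). Because 1 is added before the logarithm, the change of such a low gene is understated, and edgeR on the recovered reads gave -2.32 from Control to DTP.

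EIF2AK3, the PERK gene (chr2:88556741-88628145, minus strand), was at 49.6, 50.01 and 50.1 in Control, 17.0, 21.0 and 29.3 in DTP, 51.3, 73.1 and 82.1 in DTEP, and 68.6, 79.1 and 63.3 in LR libraries. The DTP libraries again lay below all others, whereas the LR libraries lay within the range of the DTEP libraries. Its log2 change was -1.15 ± 0.21 from Control to DTP (limma adjusted p = 0.000678) and 1.58 ± 0.21 from DTP to DTEP (adjusted p = 2.9e-05). The first call was lost without DTP replicate 1, where the change was -0.98.

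ATF6, the third ER sensor, was not called by limma. It was at 130.0 to 133 in Control, from 153 to 186 in DTP, from 102 to 111 in DTEP and from 111 to 144 in LR libraries, with a log2 change of 0.37 ± 0.12 from Control to DTP (limma adjusted p = 0.0235) and of -0.67 ± 0.12 from DTP to DTEP (adjusted p = 0.000424), neither past 1. When values were centred on genes of like transcript length, a step described with the length values further on, these were 0.99 (adjusted p = 6.0e-05) and -1.07 (adjusted p = 9.0e-06), the second of which is a call. ATF6 was thus in the opposite order to ERN1 and EIF2AK3 in DTP cells, by values alone and without a test of that difference. CREB3L2, a related ER-bound factor, had log2 changes of -0.89 from Control to DTP and 0.68 from DTP to DTEP. The first was called at -1.025 without DTP replicate 3, but was -0.26 after centring on length (limma adjusted p = 0.121). CREB3L2 was at 128 to 175 in LR libraries, above 99.8 to 104 in Control.

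Among the factors of the eIF2 branch, DDIT3 and NUPR1 were called and ATF4 was not. ATF4, the central activator, was at 290.4, 294 and 300.2 in Control, 558, 538 and 473 in DTP, 559.5, 463 and 565 in DTEP, and 447, 434 and 575 in LR libraries. Every later library exceeded every Control library. The log2 change against Control was 0.82 ± 0.14 in DTP (limma adjusted p = 0.000562), 0.84 in DTEP (adjusted p = 0.000339) and 0.71 in LR (adjusted p = 0.00105), below the size of 1 in each, and the 3 later groups overlapped.

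DDIT3, which encodes the pro-apoptotic factor CHOP (chr12:57516588-57520517, minus strand), was at 35.2, 36.5 and 36.8 in Control, 156, 157 and 131 in DTP, 32.5, 22.7 and 18.1 in DTEP, and 30.5, 52.0 and 28.7 in LR libraries. It was high in the DTP libraries only, by 4.09-fold over Control as a ratio of means. The log2 change was 1.996 ± 0.24 (limma adjusted p = 3.8e-05) from Control to DTP and -2.58 ± 0.24 (adjusted p = 1.5e-06) from DTP to DTEP. Exons of other protein-coding genes, MARS1 among them, cover 39.6% of the exonic bases of DDIT3, and strand was not used in counting, so its reads could be shared with or lost to them.

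NUPR1, a stress-induced chromatin protein, was at 104, 107 and 120.2 in Control, 459.7, 404 and 306 in DTP, 310.3, 244 and 237 in DTEP, and 327, 312 and 305 in LR libraries. Unlike DDIT3, it lay above Control in every later library. The log2 change against Control was 1.79 ± 0.16 in DTP (limma adjusted p = 5.3e-06), 1.24 in DTEP (adjusted p = 3.4e-05) and 1.504 in LR (adjusted p = 6.0e-06). ATF5 and CEBPG, further bZIP factors, were not called by limma in any of the 5 comparisons, and ATF5 was at 107 and 99.97 in DTEP replicates 1 and 2 but 37.9 in replicate 3. Without that library ATF5 was called from DTP to DTEP (1.21, adjusted p = 1.7e-05) and from DTEP to LR (-1.43, adjusted p = 4.5e-05), and with all libraries the latter was called by edgeR (-1.039, adjusted p = 0.0415) and DESeq2 (-1.061, adjusted p = 0.0082). Protein-coding exons of other genes cover 19.5% of its exonic bases.

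Of the ATF4 effectors, 4 of 6 were higher and 1 was lower from Control to DTP (9.24% and 15.8% of all genes tested), and after centring on length PPP1R15A and SESN2 alone kept their calls. The median of the 6 genes, relative to the Control mean on the log2 scale, was 1.051 to 1.32 in DTP, from 0.53 to 0.79 in DTEP and from 1.12 to 1.47 in LR libraries. PPP1R15A, also called GADD34, which brings a phosphatase to eIF2 and so ends the response, was at 20.2, 18.8 and 20.6 in Control, 90.4, 82.2 and 70.3 in DTP, 25.02, 21.5 and 19.2 in DTEP, and 16.9, 24.5 and 20.5 in LR libraries. As with DDIT3, only the DTP libraries were high. It changed by 1.97 ± 0.17 from Control to DTP (limma adjusted p = 4.0e-06) and -1.84 ± 0.17 from DTP to DTEP (adjusted p = 1.6e-06), and from Control to LR it was 0.04 (adjusted p = 0.857).

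CHAC1, DDIT4 and SESN2 were above Control in every later library. CHAC1, which degrades glutathione (chr15:40953471-40956512, plus strand), was at 3.13, 2.99 and 2.05 in Control, 10.5, 8.59 and 7.43 in DTP, 4.69, 6.26 and 17.1 in DTEP, and 26.2, 20.7 and 36.8 in LR libraries. All LR libraries exceeded all others, and DTEP replicate 3 lay between the other DTEP libraries and LR. The log2 change was 1.41 ± 0.37 from Control to DTP (limma adjusted p = 0.00691), 1.63 ± 0.37 from DTEP to LR (adjusted p = 0.0283) and 2.93 from Control to LR (adjusted p = 2.4e-05). The call from DTEP to LR was lost in the fit of the 6 libraries alone (adjusted p = 0.301) and, among others, without LR replicate 1 (adjusted p = 0.0693). The call from Control to DTEP (1.30, adjusted p = 0.0094) was lost without DTEP replicate 3, where the change was 0.80.

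DDIT4, or REDD1, an inhibitor of mTORC1, was at 28.9, 27.1 and 32.3 in Control, 78.2, 69.7 and 65.9 in DTP, 422, 191 and 184 in DTEP, and 262, 205 and 294 in LR libraries. The groups fell in 3 levels that did not overlap, with DTEP and LR libraries sharing the highest. Its change was 1.25 ± 0.27 from Control to DTP (limma adjusted p = 0.00201), 1.78 ± 0.27 from DTP to DTEP (adjusted p = 8.5e-05) and 3.05 from Control to LR (adjusted p = 1.1e-06). SESN2, another inhibitor of mTORC1 signalling and a leucine sensor, was at 23.3, 22.7 and 24.2 in Control, 57.1, 55.7 and 46.5 in DTP, 27.9, 30.7 and 41.5 in DTEP, and 72.9, 52.6 and 72.5 in LR libraries. It was called from Control to DTP (1.14 ± 0.18, adjusted p = 0.000252) and from Control to LR (1.44, adjusted p = 2.1e-05). From DTEP to LR its change was 0.97 (adjusted p = 0.0129), just under the size of 1, and edgeR (1.032) and DESeq2 (1.022) called it.

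VLDLR and TRIB3 completed this role. VLDLR, a lipoprotein receptor, was at 10.5, 9.68 and 9.69 in Control, 3.03, 2.12 and 3.57 in DTP, 17.5, 10.5 and 17.7 in DTEP, and 21.5, 22.6 and 26.7 in LR libraries. It was lower from Control to DTP (-1.51 ± 0.22, limma adjusted p = 0.000165), higher from DTP to DTEP (2.04 ± 0.22, adjusted p = 5.9e-06) and higher from Control to LR (1.16, adjusted p = 0.000623). TRIB3, a pseudokinase that restrains ATF4, was at 131 to 141 in Control and from 215 to 272 in LR libraries and was not called (0.87 from Control to LR, adjusted p = 0.0007).

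**Figure D2:**
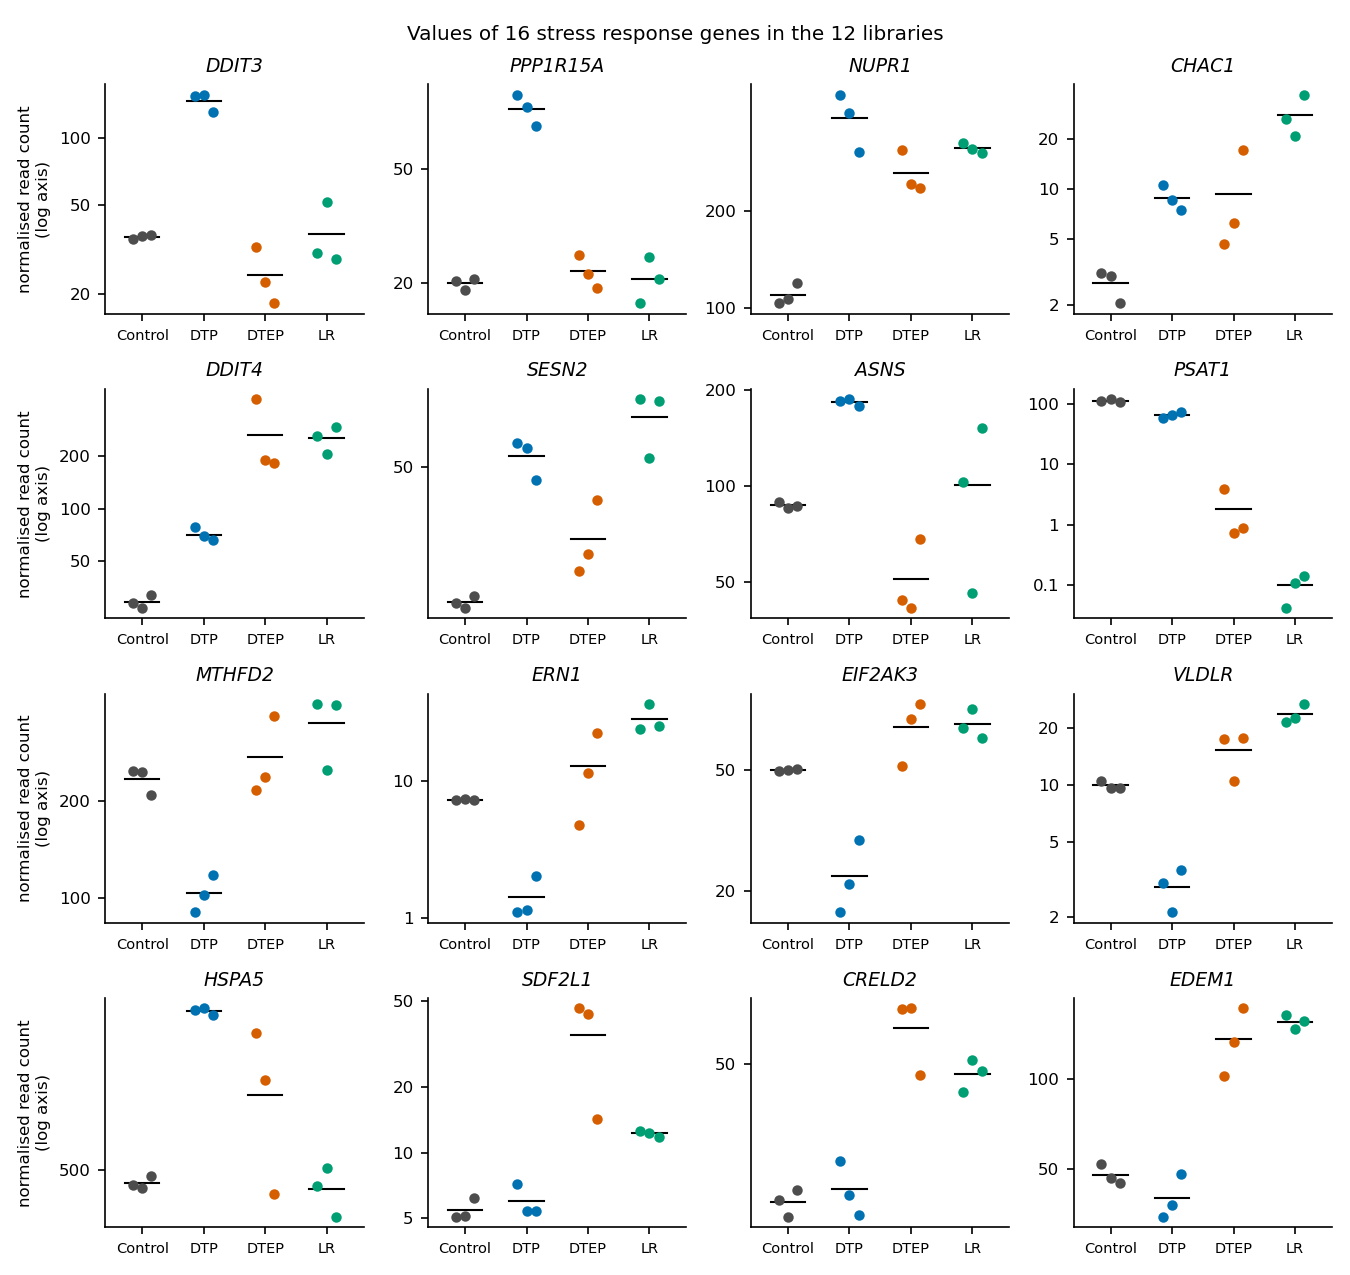
Normalised read counts (log axes, each panel on its own scale) of 16 of the genes in the 3 libraries of each group, with the group mean as a line. DDIT3 and PPP1R15A were high in DTP libraries only, ERN1, EIF2AK3, VLDLR and MTHFD2 were lowest there, and PSAT1 was between 0.0422 and 3.92 in DTEP and LR libraries.

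The serine, one-carbon and transsulfuration enzymes did not move as one group. From Control to DTP ASNS was higher and MTHFD2 lower, and the other 6 were not called. PSAT1 had the largest log2 change of the 41 genes in both DTEP and LR against Control. This aminotransferase makes the middle step from 3-phosphoglycerate to serine (chr9:78297125-78330093, plus strand). It was at 111, 118 and 107 in Control, 57.4, 65.2 and 73.9 in DTP, 3.92, 0.741 and 0.898 in DTEP, and 0.0422, 0.111 and 0.145 in LR libraries, and no 2 groups overlapped. The log2 change was -4.71 ± 0.32 from DTP to DTEP (limma adjusted p = 1.4e-07), -6.68 from Control to LR (adjusted p = 8.7e-09) and -1.21 from DTEP to LR (adjusted p = 0.0433). The LR libraries held 1 to 3 reads each, 6 in all, against 116 in DTEP and 6884 in Control libraries. From the reads, the level in LR was 1162-fold lower than in Control (95% exact interval 534 to 3168, counting error only) and 19.2-fold lower than in DTEP (8.54 to 53.3). DTEP replicate 1 held 82 of the 116 reads, and without it the latter was 8.40-fold (3.49 to 24.5) and the limma change -0.73. The call from DTEP to LR was lost in the fit of the 6 libraries alone (adjusted p = 0.301) and without any one library other than DTEP replicate 3.

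Of the enzymes on either side of PSAT1, PHGDH did not fall with it. PSPH was lower than Control in every later library, but by far less than PSAT1. PHGDH, which starts serine synthesis, was at 170.4, 167 and 171 in Control, 215, 196 and 163 in DTP, 302, 209 and 287 in DTEP, and 431, 152 and 553 in LR libraries. LR replicate 2 was low and the other LR libraries were the highest of all. Its change from Control to LR was 0.96 ± 0.36 (limma adjusted p = 0.0354), and it was called at 1.52 without LR replicate 2 (adjusted p = 4.7e-05), at 1.245 with edgeR (adjusted p = 0.0081) and at 1.132 with DESeq2 (adjusted p = 0.00324). PSPH, which ends the pathway, was at 48.7 to 51.5 in Control, from 36.4 to 38.5 in DTP, from 25.7 to 29.0 in DTEP and from 27.9 to 46.1 in LR libraries, and was not called by limma (-0.86 from Control to DTEP, adjusted p = 0.000771), but it was after centring on length (-1.14).

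ASNS, the asparagine synthetase gene and a standard ATF4 target (its promoter match is printed above), was at 89.3, 85.0 and 86.8 in Control, 185, 187 and 178 in DTP, 43.9, 41.4 and 68.0 in DTEP, and 103, 46.2 and 152 in LR libraries. It was highest in DTP and lowest in DTEP, and LR replicate 2 lay within the DTEP range. It changed by 1.07 ± 0.33 from Control to DTP (limma adjusted p = 0.0167) and -1.86 ± 0.33 from DTP to DTEP (adjusted p = 0.000323). From DTEP to LR it was 0.84 and not called (adjusted p = 0.101), and it was called at 1.31 without LR replicate 2 (adjusted p = 0.0191) and at 1.009 with DESeq2 (adjusted p = 0.0232).

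MTHFD2, a mitochondrial folate enzyme, was at 248, 245 and 207 in Control, 90.02, 102 and 118 in DTP, 216, 236 and 364 in DTEP, and 398, 248 and 396 in LR libraries. It was lower from Control to DTP (-1.17 ± 0.22, limma adjusted p = 0.00101) and higher from DTP to DTEP (1.36 ± 0.22, adjusted p = 0.000182). Exons of other protein-coding genes cover 14.1% of its exonic bases. SHMT2, its partner that splits serine, was at 163 to 171 in Control, from 135 to 160.4 in DTP, from 228 to 250.8 in DTEP and from 184 to 322 in LR libraries, with a change of 0.70 from DTP to DTEP (adjusted p = 0.00328).

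CBS and CTH run transsulfuration, which turns homocysteine into cysteine. CBS was at 0.644, 0.924 and 0.978 in Control, 0.731, 0.543 and 0.576 in DTP, 7.22, 8.98 and 9.49 in DTEP, and 9.93, 6.75 and 11.72 in LR libraries. Early and late groups were far apart, with 13.9-fold more in DTEP than in DTP cells as a ratio of means and a log2 change of 2.56 ± 0.19 (limma adjusted p = 3.5e-07), and of 2.48 from Control to LR (adjusted p = 4.3e-07). Human assemblies can hold a near-identical copy of CBS that shares its reads, so its level is uncertain. CTH was at 1.33 to 5.22 in all libraries and was not called by limma in any comparison. From DTP to DTEP its change of 0.85 became a call at 1.189 with edgeR (adjusted p = 0.0339), 1.092 with DESeq2 (adjusted p = 0.0334), 1.107 with a pseudocount of 0.1 and 1.121 without DTEP replicate 1.

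By their median, the 14 ER chaperones were nearest to Control in DTP libraries and most spread in DTEP libraries. This median, relative to the Control mean on the log2 scale, was 0.10 to 0.32 in DTP, from 0.34 to 1.09 in DTEP and from 0.40 to 0.57 in LR libraries, with the lowest DTEP value in replicate 3. HSPA5, or BiP, the chaperone that defines the response and holds the ER sensors inactive, was at 475, 469.6 and 489 in Control, 849, 853 and 834 in DTP, 787, 673 and 462 in DTEP, and 474, 503 and 427 in LR libraries. The DTP libraries lay above all others, and DTEP replicate 3 and the LR libraries lay near Control. The log2 change from Control to DTP was 0.82 ± 0.18 (limma adjusted p = 0.002), under the size of 1, and from Control to LR it was -0.03 (adjusted p = 0.875).

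The other chaperones with a printed ER stress response element did not keep the order of HSPA5. CRELD2, a cofactor of disulfide exchange, was at 23.9, 21.9 and 25.3 in Control, 29.6, 24.6 and 22.1 in DTP, 67.6, 67.8 and 47.2 in DTEP, and 43.0, 51.3 and 48.3 in LR libraries. DTP libraries overlapped Control, and all DTEP and LR libraries lay above both, with a change of 1.22 ± 0.17 from DTP to DTEP (limma adjusted p = 5.3e-05). HSP90B1, the ER form of HSP90, was at 407 to 441 in Control, from 633 to 662 in DTP, from 898 to 1186 in DTEP and from 736 to 859 in LR libraries, and was called from Control to DTEP (1.29, adjusted p = 7.1e-06) but in no step between neighbouring states.

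SDF2L1, a partner of BiP that keeps clients from aggregating, had the largest change of the chaperones. It was at 5.06, 5.11 and 6.20 in Control, 7.15, 5.38 and 5.41 in DTP, 46.2, 43.4 and 14.4 in DTEP, and 12.6, 12.3 and 11.9 in LR libraries. DTEP replicate 3 was close to the LR libraries and far from the other DTEP libraries. The log2 change was 2.20 ± 0.34 from DTP to DTEP (limma adjusted p = 0.000119) and -1.26 ± 0.34 from DTEP to LR (adjusted p = 0.0479), and the latter was lost in the fit of the 6 libraries alone (adjusted p = 0.301) and without any one library other than DTEP replicate 3. From Control to LR it was 1.045 (adjusted p = 0.0188), a call that was lost without Control replicate 1 or 2.

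PDIA3, a disulfide isomerase for glycoproteins, was at 276, 272 and 295 in Control, 354, 341 and 320.5 in DTP, 827, 740.2 and 600.4 in DTEP, and 656, 691 and 578 in LR libraries. Its change was 1.08 ± 0.14 from DTP to DTEP (limma adjusted p = 2.7e-05), a call that was lost under median-of-ratios scaling (0.96), with DESeq2 (0.97) and without DTEP replicate 1 (0.98), and 1.18 from Control to LR (adjusted p = 1.5e-05). MANF, a secreted ER stress protein, was at 25.3 to 28.1 in Control, from 46.5 to 58.4 in DTP, from 74.1 to 127 in DTEP and from 53.3 to 70.9 in LR libraries. It was called in DTEP (1.87, adjusted p = 5.9e-06) and in LR (1.10, adjusted p = 0.000378) against Control, and the latter call was lost without LR replicate 3. In the successive steps its limma changes were 0.95, 0.92 and -0.77, which were not called. The first was called at 1.051 with edgeR (adjusted p = 0.000915), at 1.045 with DESeq2 (adjusted p = 5.7e-06), at 1.013 under median-of-ratios scaling and at 1.052 without DTP replicate 3. After centring on length it was only 0.47 (limma adjusted p = 0.00546). Without DTEP replicate 3 the other steps were called at 1.152 and -1.004.

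Calnexin and calreticulin, the paired lectin chaperones for new glycoproteins, differed in direction in DTP cells. The promoter window of each holds an ER stress response element. CALR was at 567 to 629 in Control and from 810.3 to 957 in DTP libraries (0.59 ± 0.16, limma adjusted p = 0.00749), and CANX at 1314 to 1414 and 622 to 977 (-0.83 ± 0.18, adjusted p = 0.00204). DNAJC3, an inhibitor of PERK, was at 61.8 to 71.0 in Control and from 31.6 to 43.0 in DTP libraries (-0.88, adjusted p = 0.0017). None of the 3 passed the size of 1, although DNAJC3 did without DTP replicate 3 (-1.009). After centring on length the change of DNAJC3 was -0.47. PDIA4, PDIA6, DNAJB9, DNAJB11 and HYOU1 were likewise not called by limma in any successive step, and without DTEP replicate 3 PDIA6 was called from DTP to DTEP (1.155). Exons of ATP6V1C2, a protein-coding gene on the other strand, cover 25.2% of the exonic bases of PDIA6. DTEP replicate 3 was nearer to the LR mean than to the mean of the other DTEP libraries in 13 of the 14 chaperones and in 27 of the 41 genes. The share over all genes was not counted, and across all genes tested this library also correlated better with LR than with its own group.

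In ER-associated degradation, SEL1L and SYVN1, which form one ubiquitin ligase complex at the ER membrane, differed in direction. SEL1L was at 376, 369.6 and 332 in Control, 103, 128 and 185 in DTP, 168, 271 and 471 in DTEP, and 511, 437 and 362 in LR libraries. DTP libraries lay below Control without overlap, while DTEP libraries reached from the DTP range to the LR range. The change was -1.41 ± 0.31 from Control to DTP (limma adjusted p = 0.00261) and 1.04 ± 0.31 from DTP to DTEP (adjusted p = 0.0106), and the second call was lost without DTEP replicate 3, where it was 0.66, without DTP replicate 1 and under median-of-ratios scaling.

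SYVN1, or HRD1, was at 169, 171 and 181 in Control, 253, 231 and 220.4 in DTP, 98.1, 103 and 97.2 in DTEP, and 83.2, 132 and 87.0 in LR libraries, so DTP libraries were the highest. It was lower from DTP to DTEP (-1.23 ± 0.16, limma adjusted p = 2.4e-05). EDEM1, which hands misfolded glycoproteins to the degradation machinery, was at 52.1, 46.9 and 44.9 in Control, 34.7, 38.0 and 48.1 in DTP, 102, 132 and 171 in DTEP, and 162, 146 and 155 in LR libraries. Early and late libraries did not overlap, and the change was 1.70 ± 0.18 from DTP to DTEP (adjusted p = 5.2e-06) and 1.67 from Control to LR (adjusted p = 6.9e-06). HERPUD1, a scaffold of the complex whose promoter holds a C/EBP-ATF element, was at 148 to 154 in Control, from 205 to 208 in DTP, from 134 to 218 in DTEP and from 198 to 254 in LR libraries, and was not called.

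**Figure D3:**
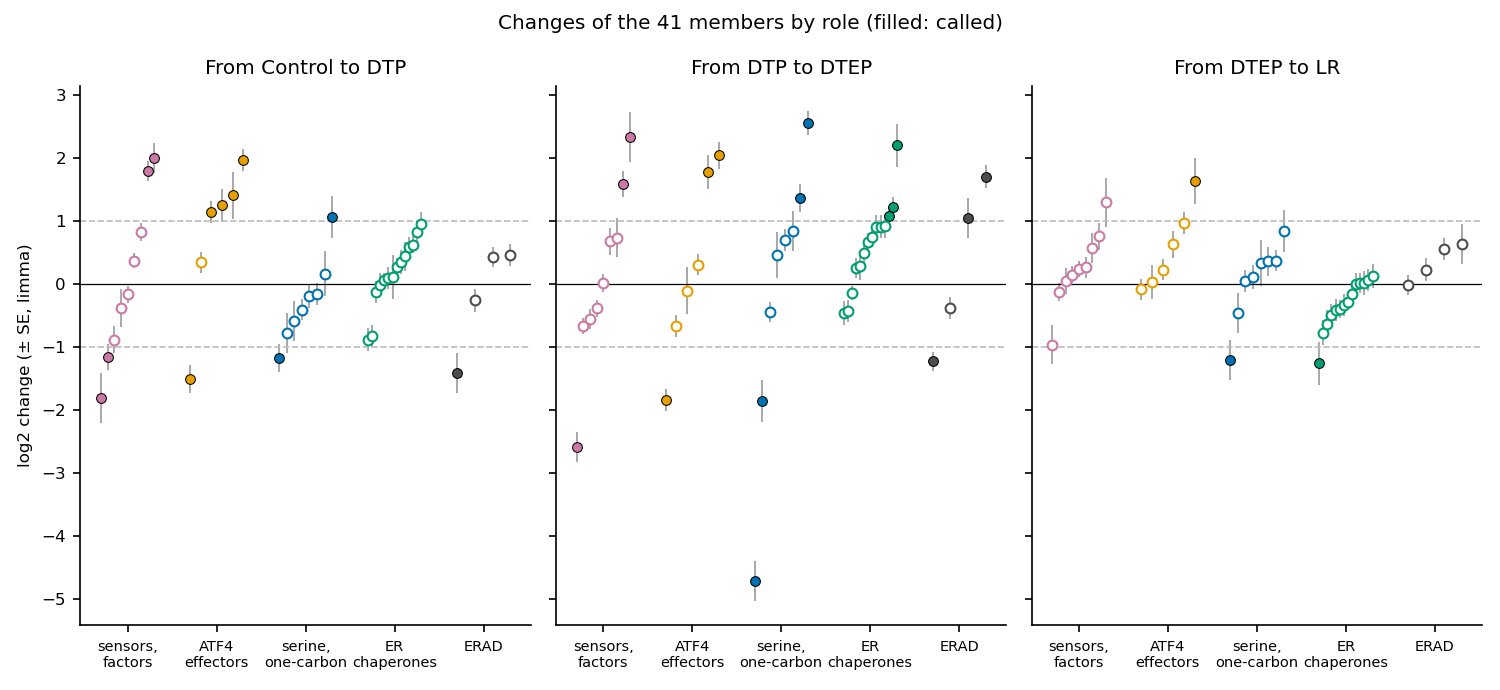
The log2 change of each of the 41 genes (points, grouped by role and sorted within it) in the 3 successive comparisons, with SE from limma as bars, filled where called and open where not, and dashed lines at -1 and 1. "ERAD" is ER-associated degradation. From Control to DTP 4 of 6 ATF4 effectors and none of 14 chaperones were called higher, and from DTEP to LR 3 of the 41 genes were called.

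The 22 genes called in no successive step had log2 changes of -0.89 to 0.95 from Control to DTP, -0.67 to 0.92 from DTP to DTEP and -0.96 to 0.76 from DTEP to LR, and 10, 15 and 1 of them passed the adjusted p alone. Over all 41 genes the adjusted p alone was passed by 15 higher and 8 lower genes from Control to DTP (25.2% and 28.8% of all genes tested), by 21 and 12 from DTP to DTEP (35.7% and 32.6%), and by 2 and 3 from DTEP to LR (3.04% and 4.31%). At the size of 2 that the study required, 0, 4 and 0 genes were higher and 0, 2 and 0 lower in these steps. The backgrounds at that size were 1.01%, 8.13% and 0.225% for higher and 3.9%, 7.02% and 0.457% for lower genes. Against Control the adjusted p alone was passed by 18 higher and 5 lower genes in DTEP (29.5% and 28.7%) and by 21 and 5 in LR (30.2% and 32.6%), and the size of 2 by 3 and 1 in each (4.43% and 6.2% in DTEP, 5.03% and 7.8% in LR). Of the 3 calls from DTEP to LR, those of PSAT1 and SDF2L1 were lost without any of 11 libraries and that of CHAC1 without any of 8, and without DTEP replicate 3 the step held 6 higher genes (ERN1, CREB3L2, SESN2, ASNS, SEL1L and CHAC1) and 4 lower genes (ATF5, MANF, PSAT1 and SDF2L1).

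Transcript length moved with the changes. Over the 12221 tested genes with a MANE Select transcript (88.6%), Spearman's rho between length and log2 change, a description across genes within these libraries, was -0.43 from Control to DTP, 0.12 from DTP to DTEP and 0.41 from DTEP to LR. From Control to DTP the median change was 0.42 in the shortest of 10 length classes and -0.82 in the longest. The 7 genes called higher there had transcripts of 903 to 5291 bases (median 2350), and the 5 called lower had 4403 to 9213 bases (median 7895). When each library was centred on genes of like length, ERN1 kept its call at -1.10 (limma adjusted p = 0.00808), whereas EIF2AK3 (-0.79), VLDLR (-0.80), SEL1L (-0.70) and MTHFD2 (-0.89) no longer reached the size of 1. Among the higher genes DDIT4 (0.94) and ASNS (0.995) fell under it, and CHAC1 at 1.06 missed the adjusted p (0.0627). DDIT3, PPP1R15A, NUPR1 and SESN2 kept their calls, and HSPA5 at 1.07 gained one (adjusted p = 0.000449). From DTP to DTEP, PDIA3 (0.9965, adjusted p = 3.5e-05) and SEL1L (0.63, adjusted p = 0.0114) fell under the size of 1 with the same centring, and ATF6 at -1.07 gained a call. SDF2L1 lost its call from DTEP to LR (-0.79, adjusted p = 0.0627), where DDIT3 gained one (1.043, adjusted p = 0.0104). The cause of the relation with length was not tested.

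**Figure D4:**
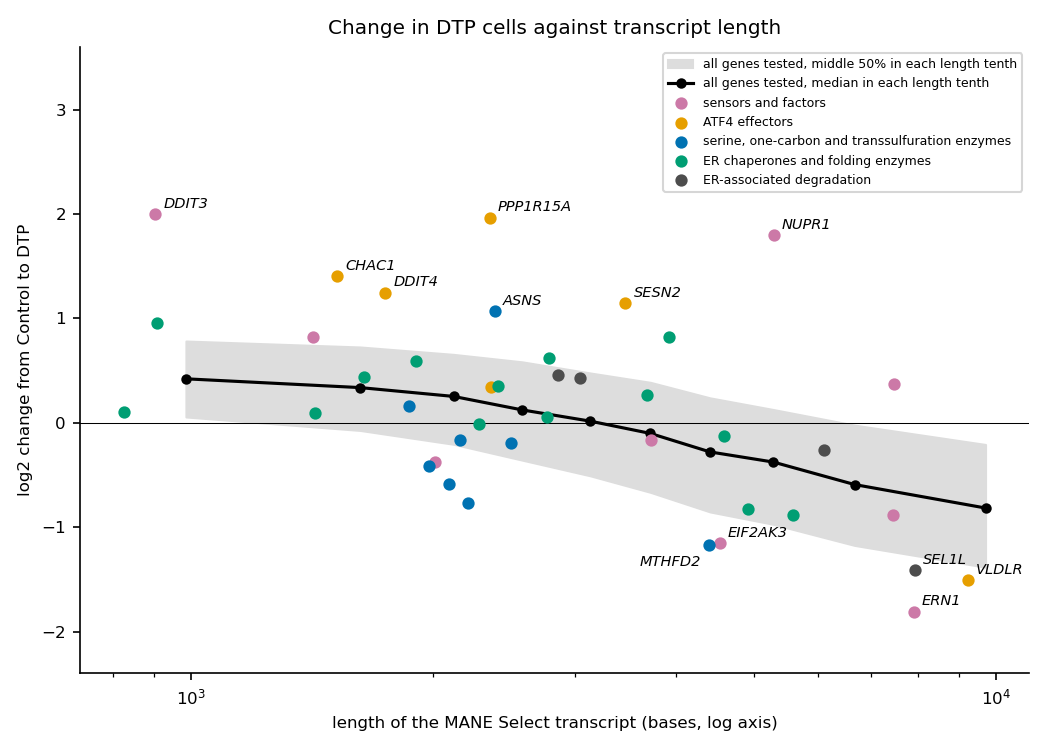
Log2 change from Control to DTP (vertical axis) against MANE Select transcript length in bases (log axis) for the 41 genes, coloured by role, with the called genes named. The black line joins the medians of all tested genes in 10 length classes and the grey band spans their middle 50%. The 5 genes called lower have transcripts of 4403 bases or more. Among the genes above the band are DDIT3, PPP1R15A, NUPR1 and SESN2, the higher genes that kept their calls after centring on length.

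Other genes of the same pathways were taken from a list of 87, of which 84 were tested. From Control to DTP 6 were higher and 12 lower, from DTP to DTEP 32 were higher and 8 lower, and from DTEP to LR 2 were higher and 1 lower, with a median change of -0.06, 0.60 and -0.02. These counts are 7.14% and 14.3%, then 38.1% and 9.52%, then 2.38% and 1.19% of the 84, beside 9.24% and 15.8%, then 22.4% and 19.5%, then 1.45% and 2.5% of all genes tested, so the first step held no more calls than the background. By role, 5 of 11 further ER folding and redox genes were lower from Control to DTP and none higher. From DTP to DTEP 6 of these 11 and 8 of 12 translocon and ER export genes were higher. Values centred on transcript length are not given for the further genes, here or below. None of 12 aminoacyl-tRNA synthetases was called from Control to DTP, where their median change was 0.28. By the adjusted p alone 4 of the 12 were higher and none lower (25.2% and 28.8% of all genes tested).

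XBP1, the target of IRE1, was at 1010.3, 1050.2 and 1019 in Control, 905, 917 and 932 in DTP, 4481, 4152 and 3819.8 in DTEP, and 3994, 3751 and 2939.7 in LR libraries. All late libraries lay far above all early ones (2.17 ± 0.17 from DTP to DTEP, limma adjusted p = 4.4e-07). Gene counts do not separate its spliced form. ATF3, a stress factor downstream of ATF4, was at 2.99 to 3.49 in Control, from 13.7 to 14.9 in DTP, from 5.95 to 13.5 in DTEP and from 7.65 to 9.74 in LR libraries (1.86 from Control to DTP, adjusted p = 5.8e-05).

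The calls of largest size in each step, named by rule, included secreted hormones, mannosidases of degradation, an export gene and an eIF2 kinase. STC2, a secreted glycoprotein, was at 186 to 195 in Control, from 703 to 739.8 in DTP, from 20.7 to 124 in DTEP and from 17.0 to 58.2 in LR libraries (1.91 from Control to DTP and -3.88 from DTP to DTEP). ADM2, a peptide hormone, was at 0.691 to 1.72 in Control and DTP and from 29.0 to 84.2 in DTEP and LR libraries (4.39 from DTP to DTEP). EDEM2 and EDEM3, relatives of EDEM1 that trim mannose, moved in opposite directions. EDEM2 had changes of 1.45 from Control to DTP and -2.71 from DTP to DTEP, and EDEM3 of -2.17 and 3.33. SEC24D, a coat protein of vesicles leaving the ER, was at 60.0 to 63.5 in Control, from 7.62 to 11.6 in DTP and from 56.9 to 99.2 in DTEP libraries. EIF2AK2, the eIF2 kinase PKR, was at 61.2 to 66.5 in Control, from 6.89 to 11.1 in DTP, from 27.8 to 54.2 in DTEP and from 62.6 to 167 in LR libraries. It was called in each step, at -2.77, 2.03 and 1.42 (limma adjusted p = 0.028 in the last). From DTEP to LR the other calls were SLC38A2, an amino acid carrier (1.03, adjusted p = 0.0433), and DERL3, a channel component of degradation (-1.47, adjusted p = 0.0239). These 3 calls were lost in the fit of the 6 libraries alone (adjusted p = 0.301 for each) and without 1 of several libraries, and edgeR and DESeq2 did not call DERL3.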

How the data were processed

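mRNA libraries of 12 BT474 samples were analysed, in 4 groups of 3 named by the sample titles. The authors made stranded libraries, aligned reads to hg38 and assigned them to RefSeq genes with Rsubread at default settings, which ignore strand, and edgeR and bcl2fastq are named in the submitters' processing notes. The table the authors deposited holds a normalised signal per gene and library. Whole reads could be recovered from it, since each of the 199680 nonzero values (100%) equalled a whole number of reads within 1e-06, and the scaling was CPM with TMM factors. Depth was 16383363 to 25030482 reads.

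One limma 3.58.1 model (R 4.3.3, variance trend, no covariates) was fitted to log2(value + 1) of all 12 libraries for genes at 1 or more in at least 3 libraries (13794 genes), with two-sided tests and Benjamini-Hochberg adjustment per comparison. As alternatives, the pseudocount, filter, trend, scaling, libraries, replicate block and threshold were changed, edgeR 4.0.16 and DESeq2 1.42.0 were run on recovered reads, and values were centred on genes of like transcript length in 20 classes, the last chosen after seeing the data. Steps were tested on simulated data. The 41 members, their roles, the 87 further pathway genes, the markers and the call size were chosen with earlier results of these data known. Members called in a successive step without overlap of the groups are given library by library. The sensors, ATF4, DDIT3 and HSPA5 are named in any case. Of the further genes, the 2 largest and 2 smallest calls per step are named, with XBP1 and ATF3. Coordinates, exon overlaps and lengths are from RefSeq on GRCh38.p14 and GENCODE v44. All 41 members, and 73 of the 87 by symbol, 12 by Entrez ID and 2 by older symbol, were matched. TXNDC5, ALDH1L2 and FGF21 failed the filter.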

Additional observations from a re-analysis of the deposited data

How the results depend on the processing

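Over 54 calls of the 41 genes, 691 values under other settings kept their direction and their side of the threshold and 62 kept the direction only, and with a single library left out the numbers were 610 and 38. No call changed direction. The 691 include 2 settings that could hardly lose a call, the adjusted p alone (54) and a repeat of the TMM scaling (54). Conversely, the size of 2 could only lose calls, and it gave 40 of the 62. The filter at a mean of 5 left 51 of the 54 calls to compare. Main counts of higher and lower genes among the 41 were 7 and 5 from Control to DTP, 11 and 5 from DTP to DTEP, 1 and 2 from DTEP to LR, 10 and 1 from Control to DTEP, and 11 and 1 from Control to LR. With an absolute log2 change above 2 they were 0 and 0, 4 and 2, 0 and 0, 3 and 1, and 3 and 1, and with the adjusted p alone 15 and 8, 21 and 12, 2 and 3, 18 and 5, and 21 and 5. Centring on length gave 1 lower gene from Control to DTP, 2 higher and 1 lower from DTEP to LR and 3 lower from Control to DTEP. From DTEP to LR, 0 genes were higher and 0 lower with no filter or with only the 6 libraries compared, and 2 were higher with median-of-ratios scaling, 2 with edgeR and 4 with DESeq2. With a single library left out, counts ran from 7 to 8 higher and 4 to 7 lower from Control to DTP, 10 to 13 and 5 to 5 from DTP to DTEP, 0 to 6 and 0 to 4 from DTEP to LR, 10 to 11 and 1 to 2 from Control to DTEP, and 10 to 12 and 1 to 2 from Control to LR. For the 84 further genes, a change above 2 gave 0 and 3, 9 and 3, 0 and 0, 6 and 0, and 4 and 1 in the same order, and the adjusted p alone gave 19 and 26, 46 and 16, 6 and 3, 39 and 13, and 38 and 14. The causes of these differences were not tested, apart from the thresholds and the fewer libraries or genes that some settings use by construction.

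Replicate numbers did not pair the samples: 2 of 18 pairs of libraries with the same number correlated above 0.1 in their deviations from the group means (range -0.441 to 0.359), and 2 of 12 libraries correlated best with their own number. With the replicate number as a block, 0 genes were lower from DTEP to LR, where PSAT1 had an adjusted p of 0.0589 and SDF2L1 of 0.0557 (limma). Depth limits PSAT1 in LR cells, at 1 to 3 reads per library.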

Other observations

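LR replicate 2 was low in several genes of amino acid supply. ASNS was at 46.2 there and at 103 and 152 in the other LR libraries, PHGDH at 152 against 431 and 553, and SLC7A5, a transporter of large amino acids, at 86.1 against 159 and 213. MTHFD1L, a mitochondrial folate enzyme, was at 4.76 against 14.2 and 33.7, and GPT2, an alanine transaminase, at 58.4 against 119 and 141. The same library was low in replication genes, with MCM2 at 16.9 against 113 and 146, and RRM2 at 16.9 against 123 and 180.4. DDIT3 was instead at 52.0 there, against 30.5 and 28.7. Genes in this paragraph were chosen after their values were seen, and no test was made.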
